A study of Mus musculus with 33 samples.

Results

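The 10 genes described here encode the interleukin-1 family ligands Il1a, Il1b and Il18, the antagonist Il1rn, the decoy receptor Il1r2, the shared receptor chain Il1rap, and the inflammasome genes Nlrp3, Casp1, Casp4 and Gsdmd. They were chosen by name, all 10 were among the 32285 genes listed in the files, and they were followed across cell classes, tissues and biotin sorts. The data were single-cell RNA-seq counts from mice studied with SAMENT, in which an enzyme carried by injected tumour cells tags neighbouring cells with biotin, so that the positive sort is meant to hold cells near the tumour and the negative sort the remainder of the organ. Tissues were taken after overnight labelling of about 10 hours, which all groups shared. Injection into the heart was followed by collection of 4 organs (lung, liver, brain and bone), with 4 positive and 4 negative samples per organ, sequenced as 3' libraries and called intracardiac here. A separate bone experiment, named IIA in the labels, gave 12 hashtagged samples in 1 pooled 5' library, a positive and a negative sample for each of 6 injections. The labels give no strain, genotype, age, sex or tumour line, no untagged or tumour-free control, and do not say whether samples came from separate mice. The p-values below therefore measure the spread between these samples, part of which may be technical.

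The interleukin-1 ligands act early in inflammation. IL-1 alpha and IL-1 beta bind a receptor that signals together with the accessory chain encoded by Il1rap, through MyD88 and IRAK kinases to NF-kB. The antagonist encoded by Il1rn occupies that receptor without signalling, and the decoy receptor encoded by Il1r2 captures the ligand. IL-1 beta and IL-18 are made as precursors, which caspase-1 cleaves once a sensor such as NLRP3 has assembled an inflammasome. Caspase-1 and the mouse Casp4 product, which responds to bacterial lipopolysaccharide inside cells, also cleave gasdermin D, whose fragment forms pores in the plasma membrane. Myeloid cells are the main known source of IL-1 beta, and tissue macrophages and epithelia of IL-18. Transcript counts do not report cleavage or release.

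In the mouse annotation GENCODE M21 on GRCm38, Il1a and Il1b are neighbours on the minus strand, at chr2:129299610-129309972 and chr2:129364570-129371139. Il1rn lies elsewhere on that chromosome, at chr2:24336853-24351494 on the plus strand. Casp1 (chr9:5298517-5307265) and Casp4 (chr9:5308828-5336783) are adjacent on the plus strand, and Il18 is on the same chromosome at chr9:50554827-50581840. Il1r2 is at chr1:40074079-40125231, Il1rap at chr16:26581704-26730117, Nlrp3 at chr11:59541568-59566956 and Gsdmd at chr15:75862327-75867408, all on the plus strand. Il1a, Il1b, Il1r2, Il1rap and Il18 overlap genes on the opposite strand, among them Il1bos for Il1b and Tex12 and Bco2 for Il18. Il1r2 also overlaps Gm37347 on its own strand. Whether counting used strand is not stated, so reads of such partners may not have been separated.

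The 250 bases before the transcription start are shown for the 4 members that were higher together in biotin positive IIA neutrophils (Il1b, Nlrp3, Il1r2 and Il1rap), and for Casp4, which was lower in bone neutrophils together with Il1b and Nlrp3. The sequences come from RefSeq (GRCm38.p6), run 5′ to 3′ on the gene's strand, and end at the base before the start. Capitals mark matches on either strand to the NF-kB motif, searched as GGG and CC with 5 bases of any kind between them. The windows are chr2:129371140-129371389 (minus strand) for Il1b, chr11:59541319-59541568 for the upstream start site of Nlrp3, chr1:40085843-40086092 for Il1r2, chr16:26581455-26581704 for Il1rap and chr9:5308599-5308848 for the first start site of Casp4.
Il1b: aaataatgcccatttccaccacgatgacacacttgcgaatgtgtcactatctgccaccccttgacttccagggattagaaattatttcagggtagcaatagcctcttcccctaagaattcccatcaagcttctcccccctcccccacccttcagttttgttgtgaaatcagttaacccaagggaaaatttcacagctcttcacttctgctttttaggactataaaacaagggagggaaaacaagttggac
Nlrp3: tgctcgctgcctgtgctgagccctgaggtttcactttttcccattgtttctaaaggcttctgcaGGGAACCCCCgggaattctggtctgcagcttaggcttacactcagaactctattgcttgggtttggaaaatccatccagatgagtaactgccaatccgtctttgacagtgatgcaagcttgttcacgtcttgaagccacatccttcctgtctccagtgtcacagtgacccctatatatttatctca
Il1r2: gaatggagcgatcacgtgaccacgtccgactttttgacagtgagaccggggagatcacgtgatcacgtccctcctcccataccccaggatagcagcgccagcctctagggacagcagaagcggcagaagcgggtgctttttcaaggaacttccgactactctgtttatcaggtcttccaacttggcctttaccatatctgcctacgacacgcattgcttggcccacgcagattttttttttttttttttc
Il1rap: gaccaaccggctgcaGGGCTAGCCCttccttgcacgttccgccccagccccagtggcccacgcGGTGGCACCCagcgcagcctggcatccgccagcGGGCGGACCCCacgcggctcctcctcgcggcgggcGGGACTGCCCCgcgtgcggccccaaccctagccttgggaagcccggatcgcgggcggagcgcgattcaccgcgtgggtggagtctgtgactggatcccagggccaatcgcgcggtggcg
Casp4: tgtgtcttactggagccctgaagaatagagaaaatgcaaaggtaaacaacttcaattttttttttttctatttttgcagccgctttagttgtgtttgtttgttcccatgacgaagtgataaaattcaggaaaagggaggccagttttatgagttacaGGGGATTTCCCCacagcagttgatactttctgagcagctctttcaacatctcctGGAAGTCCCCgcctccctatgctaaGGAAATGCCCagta
Il1rap held 9 overlapping matches, which fuse into 4 capital runs, Casp4 held 6 in 3 runs and Nlrp3 held 2 on the same bases, while the windows of Il1b and Il1r2 held no match to these letters. The window of the other Nlrp3 start site, which is not shown, held no match either. Promoter entries were found for 9 of the 10 members with 13 start sites, Gsdmd being without one, and 7 of the 13 windows held the motif, against 45.8% of 32851 promoters of the same length. The interferon response motif (GAAA and GAAA with 2 bases of any kind between them), TTGCNNNAA (C/EBP) and AGAGGAAG (PU.1) were in 2.98%, 8.29% and 3.67% of those promoters and in 0 of the 13 windows. A match is a string of letters and not a bound site, and members with and without it were higher in the same cells.

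After filtering, 55366 intracardiac cells (94 to 3505 per sample, 482617 to 44834665 UMIs) and 22362 IIA cells (249 to 3480 per sample, 2149784 to 27903856 UMIs) remained. Levels are counts per 1000000 UMIs (CPM) of the summed cells of 1 class in 1 sample with at least 10 such cells, as mean ± SD over samples. A class name means that the cluster resembles that cell type by markers, and the 10 members were kept out of the genes used for clustering. Free RNA can place transcripts in droplets of cells that do not make them. In the intracardiac samples T cells and B cells, which are not known sources of IL-1 beta, showed Il1b at 389.9 ± 488 CPM (29 samples) and 331 ± 427 CPM (29 samples) as means over all tissues and sorts. By tissue and sort the T cell mean ran from 61.0 (brain positive) to 1241 CPM (lung positive), so a level is not read as expression where it is at or below that of T cells of the same tissue and sort. T cells of the IIA library showed 18.4 ± 15.1 CPM (7 samples). The 3' and 5' experiments were not compared with each other.

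Neutrophils had the highest mean level of Il1b. In the intracardiac samples Il1b was 6649 ± 4752 CPM in neutrophils (32 samples, 566 to 21008), 1539 ± 1391 in monocytes (30 samples), 915 ± 974 in dendritic cells (25 samples) and 809 ± 772 in macrophages (19 samples). Neutrophils exceeded the T cell mean in all 8 combinations of tissue and sort. In positive liver, however, Il1b was 444 ± 219 in dendritic cells and 385 ± 120.2 in macrophages, below T cells (1059 ± 223), and 1124 ± 1298 in monocytes, about level with them, so these 3 values are not read as expression. The ranges of neighbouring classes in this order overlapped, and alveolar macrophages (368 ± 243), immature neutrophils (300.6 ± 289) and microglia (204 ± 165) did not exceed the overall T cell mean. By tissue and sort this differed. In positive brain, immature neutrophils (553 ± 123, 2 samples) and microglia (206 ± 191, 4 samples, 52.2 to 466) exceeded the T cell mean of that sort. Immature neutrophils of negative bone (88.3 ± 97.9) and negative liver (231 ± 290, 3 samples) did not. In the biotin negative sorts neutrophils held 79.8% of all Il1b UMIs in liver, 65.7% in lung, 65.2% in brain and 46.4% in bone, as means of 4 samples. In the biotin positive sorts the mean shares were 79.6% (43.7% to 97.6%) in liver, 66.1% in brain, 61.0% in lung (29.7% to 85.4%) and 50.9% in bone (25.3% to 90.3%), so the share varied widely between samples. The other ligands had their highest means in other classes. Il1a was, in brain microglia, 293 ± 129.9 CPM (5 samples, 104 to 447). The alveolar macrophage class held 79.9 ± 78.4 CPM in the 4 positive lung samples, and it also took in 22 cells of 1 negative lung sample (34.2 CPM) and 16 cells of 1 positive liver sample (244 CPM), the latter within the microglia range. Endothelial cells held Il1a at 44.7 ± 42.4 CPM (12 samples), with 76.7 ± 32.7 in negative liver, 64.8 ± 39.5 in positive liver and 17.7 ± 25 in positive lung. Brain endothelial cells held no Il1a counts. Macrophages held 35.5 ± 45.1 CPM (19 samples). Neutrophils showed Il1a at 15.1 ± 25.3 over all tissues and at 53.2 ± 54.7 in positive lung (9.88 to 124), overlapping alveolar macrophages there. T cells showed Il1a at 2.08 ± 3.21 CPM. Il18 was 513 ± 74.1 CPM in alveolar macrophages (the same 6 samples, 429.8 to 623), above every sample of every other class shown, of which macrophages at 55.6 ± 52.7 (6.83 to 225) and microglia at 36.6 ± 16.2 came next. Neutrophils, the class with the highest Il1b, held Il18 at 4.42 ± 2.28 CPM.

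**Figure D1:**
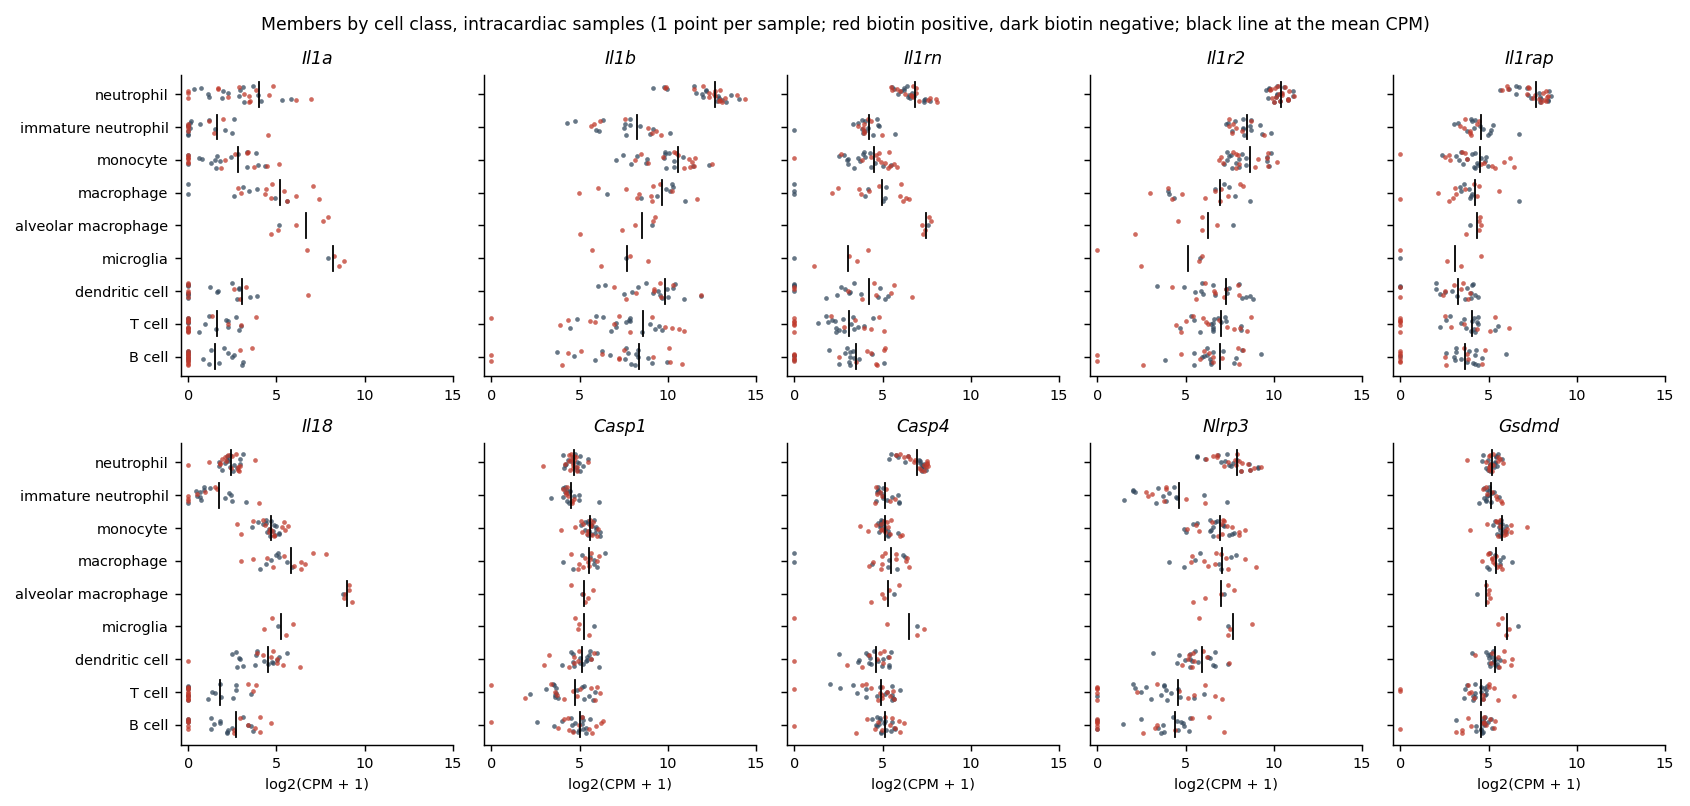
Level of each member on the log2(CPM + 1) axis in 9 cell classes of the intracardiac samples, 1 point per sample (red biotin positive, dark biotin negative) with a line at the mean. Il1b, Il1r2 and Il1rap points lie farthest right in neutrophils, Il18 points in alveolar macrophages and Il1a points in microglia.

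The antagonist and the decoy differed in where they were found. Il1rn was 171 ± 28.8 CPM in alveolar macrophages of positive lung, against 215 ± 66.1 in neutrophils of the same 4 samples, with overlapping ranges. Over all tissues neutrophils held 113 ± 61.1 (32 samples, 42.8 to 275), with the lowest mean in negative bone, at 63.2 ± 18.6. Macrophages (30.5 ± 29.1) and monocytes (21.6 ± 14.6) followed. The decoy receptor Il1r2 was 1338 ± 422 CPM in neutrophils (741 to 2304), 408 ± 299 in monocytes (120.0 to 1158) and 350.2 ± 197 in immature neutrophils. Macrophages (122 ± 113) and microglia (34.6 ± 29.6) were at or below T cells (127 ± 104) for this gene. The accessory chain Il1rap was 203 ± 98.1 CPM in neutrophils (48.2 to 363), and immature neutrophils at 22.5 ± 19.9 and monocytes at 22 ± 19.7 stood close to T cells at 15.9 ± 16.5.

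The inflammasome genes are given as means over all tissues and sorts a class was found in, and microglia were found only in brain and alveolar macrophages nearly only in lung. The sensor Nlrp3 was 243 ± 153 CPM in neutrophils, 202 ± 143 in microglia, 133 ± 119.6 in macrophages, 127 ± 64.4 in alveolar macrophages and 125 ± 74.5 in monocytes, with overlapping ranges throughout, and 23.1 ± 31.7 in T cells. In positive brain it was 211 ± 163 in microglia and 182 ± 84.2 in neutrophils, so the order of this pair differed from that of the overall means. Casp4 was 124 ± 47.4 CPM in neutrophils and 89.4 ± 67.9 in microglia, against 43.1 ± 26.9 in macrophages and 34.7 ± 11.6 in monocytes, the last close to B cells at 34.6 ± 16.2. Casp1 was 47.2 ± 12.8 CPM in monocytes, 45 ± 17.9 in macrophages, 24.7 ± 7.48 in neutrophils and 22.2 ± 11.4 in immature neutrophils, with 26.1 ± 20.3 in T cells, 31.8 ± 18.4 in B cells and 10 ± 2.87 in plasma cells. Gsdmd, the pore-forming substrate, was 65.5 ± 21 in microglia, 54.1 ± 20.8 in monocytes and 35.9 ± 8.79 in neutrophils, against 23 ± 15.5 in T cells and 5.43 ± 4.35 in plasma cells. In positive brain, Gsdmd was 89.2 ± 48.2 in monocytes and 57.1 ± 10.9 in microglia. These orders are descriptions without a test.

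In the IIA bone library neutrophils (12 samples) held Il1b at 1062 ± 1266, Il1r2 at 501 ± 263 and Il1rap at 103 ± 78.8 CPM. In the class named macrophage the negative cells go against that name by their markers, as given with the comparison of the sorts, so only the 6 positive samples are given here, with Il1b at 397 ± 232, Il1rn at 240.3 ± 156 and Il18 at 50.8 ± 30.8 CPM. Il1rn was 190.4 ± 205 in neutrophils. The SDs of neutrophil Il1b and Il1rn exceeded their means. Immature neutrophils held Il1b at 0.685 ± 1.25 CPM.

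Over 72 groups of class, tissue and sort, the genes whose log2(mean CPM + 1) ran most like Il1b were Mcl1 (Pearson r = 0.917), Wfdc17 (0.906) and the chemokine Cxcl2 (0.905), among 7681 genes. Nlrp3 ran most like Ccl6 (0.897), Il1b (0.89) and Tlr13 (0.873). Il1r2 ran most like Clec4e (0.913), Clec4d (0.901) and Trem1 (0.891), and Il1rap like the G-CSF receptor gene Csf3r (0.883), Hdc (0.882) and Entpd3 (0.875). Csf3r (0.777) also led the list for Casp4, before Plk3 (0.768) and Lilrb4a (0.767). Clec4e, Trem1, Csf3r and Hdc belong to the marker list that named the neutrophil class. Il18 ran most like Slc8a1 (0.841), Shtn1 (0.84) and Cd68 (0.834), Il1a like Fnip1 (0.797) and Ddx3x (0.73), and Il1rn like Gabarap (0.828), Ccr1 (0.817) and Atp6v1g1 (0.811). Casp1 ran most like Vav1 (0.728) and Gsdmd like Cdc42 (0.817). The groups share libraries, free RNA and depth, so these values only describe.

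Outside the labelled niche, neutrophils of bone held less Il1b, Nlrp3, Casp4 and Il1rn than the mean of neutrophils of the other 3 tissues. Il1b in the biotin negative neutrophils of pools 1 to 4 was 2818, 883, 566 and 985 CPM in bone, 17066, 8550.1, 7111 and 10020.3 in lung, 12037, 7434, 4103 and 7749.5 in liver, and in brain 4658, 4566, 3159 and 3877. Bone was the lowest of the 4 tissues in 4 of 4 pools, and lung was above liver in 4 of 4. The log2 fold change of bone against the mean of the other tissues was -2.59 (SE 0.31, adjusted p = 9.7e-05), from edgeR's quasi-likelihood test with Benjamini-Hochberg adjustment over 7658 genes. Of the 10 members 4 were called lower and 0 higher, against 4.82% and 2.6% of all genes tested (7.42% in either direction), and the median log2 fold change was -0.99 over the members against a median of 0.0244 over all genes.

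The sensor followed the ligand. Nlrp3 was 160.1, 111, 49.6 and 49.4 CPM in bone, 543, 548, 404 and 282 in lung, 209, 390.0, 173 and 192 in liver, and in brain 67, 240.3, 149 and 128, with a log2 fold change of -1.58 (SE 0.33, adjusted p = 0.0068) by edgeR. Bone was lowest in 3 of 4 pools, since the brain sample of pool 1 was lower than the bone one. Casp4 was 43.4, 52.9, 85.5 and 57.7 in bone, 163, 144, 176 and 152 in lung, 136, 161, 148 and 154 in liver, and in brain 40.2, 132, 137 and 77.1 (-1.14, SE 0.27, edgeR adjusted p = 0.013). The bone samples lay below all liver and lung samples and overlapped those of brain. Il1rn was 83.9, 45.3, 73.5 and 49.9 in bone, 168, 165, 203 and 160.1 in lung, 90.2, 108, 86.1 and 94.4 in liver, and in brain 72.3, 65.3, 103 and 58.1 (-0.84, SE 0.18, edgeR adjusted p = 0.0077). Lung neutrophils were the highest for the antagonist in all 4 pools. Bone was the lowest for it in 3 of 4 pools, and the bone samples overlapped those of brain.

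Il1rap, the signalling chain, had a log2 fold change of -1.18 (SE 0.39, adjusted p = 0.074), and with the pool as a replicate block the edgeR adjusted p was 0.000291 at -1.18. Il1a passed with the block as well, at -1.07 (edgeR adjusted p = 0.037), but not without it, at -1.19 (SE 0.75, adjusted p = 0.37). Il1r2 (-0.38, SE 0.27), Casp1 (-0.15, SE 0.24), Gsdmd (0.05, SE 0.17) and Il18 did not pass. Leaving out bone replicate 4 ended the calls of Il1rn (edgeR adjusted p = 0.0553) and Casp4 (0.0663), and leaving out brain replicate 1 brought in Il1rap (0.0196). Clustering with the members among the variable genes moved Il1rn to an edgeR adjusted p of 0.0541.

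**Figure D2:**
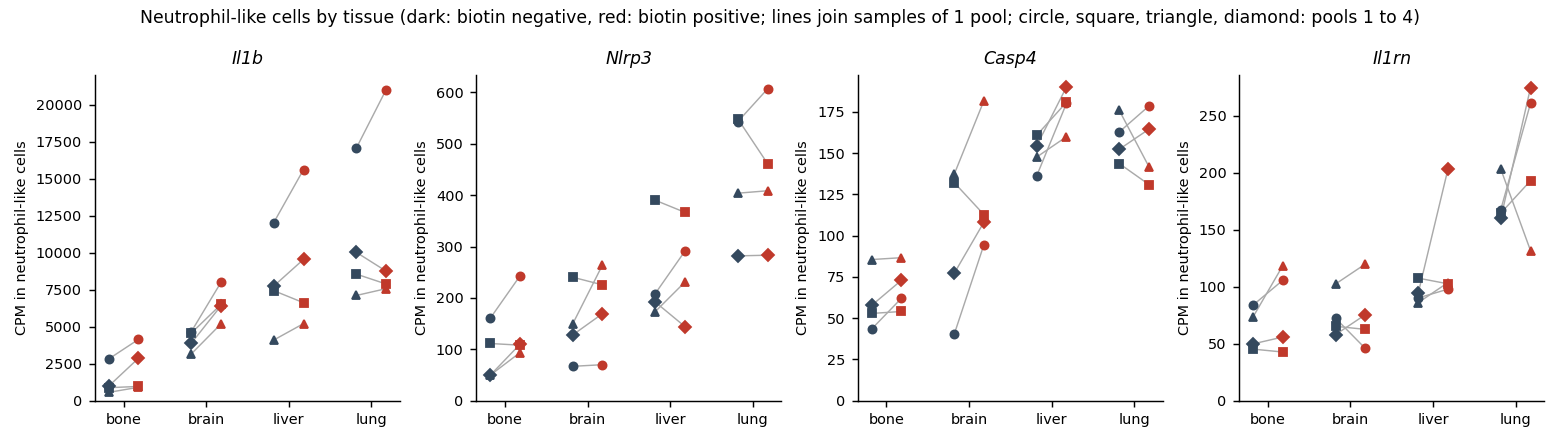
CPM of Il1b, Nlrp3, Casp4 and Il1rn in neutrophil-like cells of each tissue (dark biotin negative, red biotin positive, grey lines joining the samples of 1 pool, symbols for pools 1 to 4). In the biotin negative sort Il1b is lowest in bone and higher in lung than in liver in each of the 4 pools.

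The neutrophil class was not made of the same cells in each tissue. Cluster 13, led by Retnlg, Prok2 and Ly6g, made up 64.5% of biotin negative neutrophils in bone and 44.7% in brain, against 16.6% in liver and 5% in lung. Cluster 10, led by Ccrl2, Hcar2, Ptgs2 and also by the member Il1b, made up 2.9%, 10.9%, 30.8% and 45.1% in the same order. Cluster 9 (Wfdc17, G0s2) made up 9.19% in bone and 42.3% to 48.6% elsewhere. Within clusters, a view chosen after the values were seen, bone stayed the lowest on average. Il1b was 514 ± 305.1 CPM in cluster 13 of bone against 1473 ± 819 in brain, 1375 ± 375 in liver and 1945 ± 209.6 in lung (n = 4, and 3 in lung). In cluster 9 it was 4626 ± 1387, 6473 ± 2074, 7035 ± 2317 and 8763 ± 2490.5, and in cluster 10 8427 ± 2207, 13430.1 ± 5367, 14749 ± 6069 and 14603 ± 5144, with ranges that overlapped between bone and at least 1 other tissue. These values within clusters were not tested between tissues. T cells of the same sorts held Il1b at 480.4 ± 306.7 CPM in lung, 348 ± 327 in liver, 197 ± 44.8 in brain and 100.4 ± 91.3 in bone, the same order at a lower level, and the 14 neutrophil markers summed to 384924 CPM in bone neutrophils and 288170 in those of lung. The part of these in the result was not tested.

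**Figure D3:**
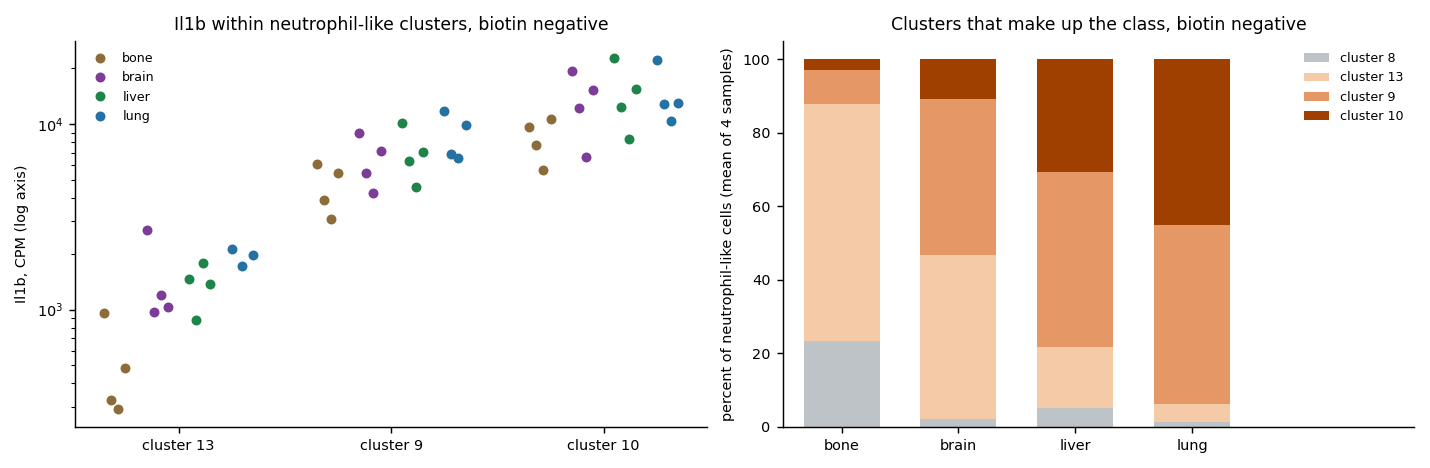
Left, Il1b in CPM (log axis) within neutrophil-like clusters 13, 9 and 10 of the biotin negative samples, 1 point per sample and coloured by tissue; right, the mean percent of neutrophil-like cells in each cluster. Bone points lie low within each cluster, and cluster 13 is the largest part of bone neutrophils.

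Among 64 other genes of the pathway found in the files, 42 were tested in this comparison, and 2 (4.76%) were higher and 3 (7.14%) lower in bone neutrophils, against 2.6% and 4.82% of all genes. The lower ones were the NF-kB inhibitor and target Nfkbia at -2.08 (adjusted p = 4.6e-05), Nfkbiz, which encodes a nuclear regulator of NF-kB, at -1.82 (adjusted p = 0.00033), and the pyrin gene Mefv at -0.81 (adjusted p = 0.047), by edgeR. The higher ones were Serpinb1a, an inhibitor of neutrophil proteases that is also in the immature neutrophil marker list, at 1.20 (adjusted p = 0.0056), and the inflammasome adaptor Pycard at 0.87 (adjusted p = 0.037). Both adaptor and sensor of the NLRP3 complex thus passed, in opposite directions.

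Lung and liver neutrophils, compared in the same fit, gave 0 of 10 members called by edgeR (0% of all genes), with 3 at an unadjusted p under 0.05 and 0 by DESeq2. Il1b was higher in lung by 0.44 (SE 0.32). With the pool as a block, Il1a was higher in lung by 2.27 (edgeR adjusted p = 0.00497) and Il1rn by 0.82 (edgeR adjusted p = 0.00734). In monocytes, bone against the other tissues gave 0 members called by edgeR (0.546% of all genes), 2 unadjusted and 0 by DESeq2, and the block called Il1a at 1.05 (edgeR adjusted p = 0.0247). For lung against liver monocytes edgeR called 0 members (0% of all genes), 5 passed unadjusted, DESeq2 called Nlrp3 at 1.62 (adjusted p = 0.0204), and the block called Il1a at 3.0 (edgeR adjusted p = 0.000534) and Nlrp3 at 1.76 (edgeR adjusted p = 0.02). Without the block Il1b in lung monocytes stood at 2.34 (SE 0.75, adjusted p = 0.27) relative to liver.

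In lung, the biotin positive cells held more Il18. Over all cells Il18 was 15.3, 22.8, 17.2 and 13.8 CPM in the negative samples and 296, 374, 211 and 144 in the positive ones, and every positive sample was above every negative one. The log2 fold change was 3.59 (SE 0.32, adjusted p = 0.00082) by edgeR, and Il18 was the only member called in this comparison, where 18.3% of all genes were called (11.5% higher and 6.8% lower). Alveolar macrophages made up 44.7% of positive lung cells (14.7% to 81.2% in 4 samples) and 0.294% of negative ones, and they held 93.9% of the Il18 UMIs of positive lung (87.3% to 98%) and 12.7% of those of negative lung (1.21% to 32.8%). In whole sorts a change in the share of a cell type and a change in RNA per cell cannot be told apart. Within the class Il18 was 526 ± 78.9 CPM in 4 positive samples and 430 CPM in the 1 negative sample with enough cells.

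**Figure D4:**
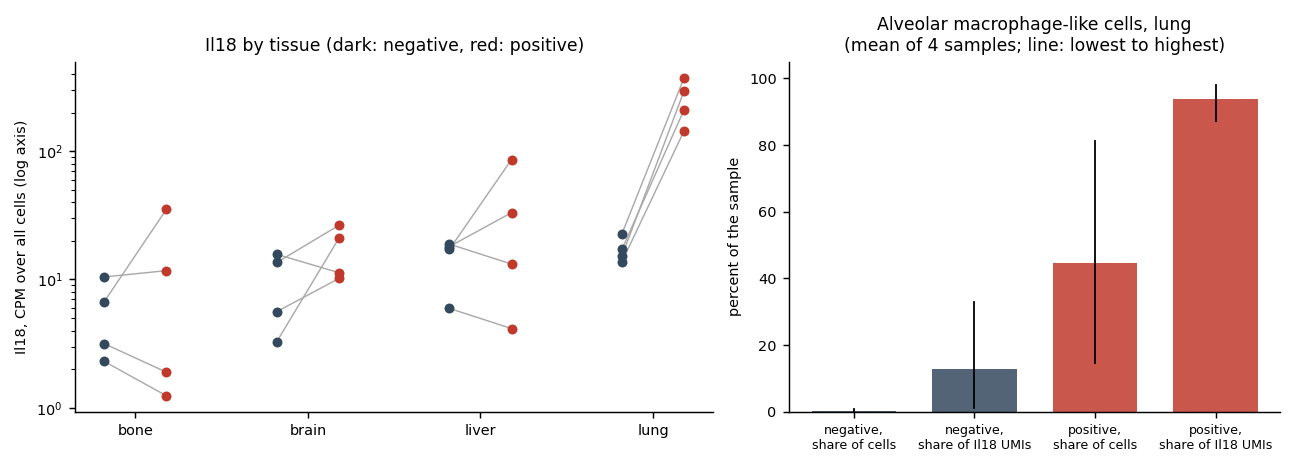
Left, Il18 over all cells in CPM (log axis) by tissue, grey lines joining the sorts of 1 pool (dark negative, red positive); right, the mean percent of lung cells and of lung Il18 UMIs in alveolar macrophage-like cells, with lines from the lowest to the highest of 4 samples. Positive lung samples lie above all negative ones, and alveolar macrophages hold 93.9% of their Il18 UMIs.

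The same lung sort also held more Il1rn in every pool, at 194, 146, 128 and 146 CPM against 60.3, 109, 24.8 and 73.6, without overlap, but the log2 fold change of 0.86 (SE 0.43, adjusted p = 0.19) did not pass. Groups did not overlap for 2 of 10 members, against 21.6% of all genes. Alveolar macrophages held 53.7% of the Il1rn UMIs of positive lung. Il1a was 276, 71.6, 22.2 and 27.5 in positive and 43.7, 32.5, 6.99 and 7.19 in negative lung, higher in 4 of 4 pools although the groups overlapped. It passed only with the pool as a block, at 1.60 (edgeR adjusted p = 0.0186), against 1.79 (SE 0.89, adjusted p = 0.18) without. Of the other pathway genes 59 of 64 were tested, and 6 (10.2%) were higher and 5 (8.47%) lower, near the 11.5% and 6.8% of all genes, so the count is no result about the pathway. The higher ones included Nlrp10 at 2.94 (adjusted p = 0.0058), the apoptotic caspase gene Casp8 at 0.75 (adjusted p = 0.008) and the IL-36 receptor gene Il1rl2 at 2.26 (adjusted p = 0.013). The lower ones included the IL-33 receptor gene Il1rl1 at -2.44 (adjusted p = 0.0072) and the IL-18 receptor gene Il18r1 at -2.50 (adjusted p = 0.032). T cells were 20% of negative and 3.05% of positive lung cells and NK cells 5.21% and 0.361%, and the part of these shares in the lower genes was not tested.

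In brain no member was called over all cells by edgeR, against 3.06% of all genes, with 1 unadjusted and 1 by DESeq2, in each case Il1a. Il1a was 7.37, 29.3, 133 and 149 CPM in positive and 1.52, 3.69, 7.95 and 1.19 in negative samples, higher in 4 of 4 pools, while the lowest positive sample lay below the highest negative one. The log2 fold change was 4.30 (SE 1.00, adjusted p = 0.054) by edgeR. It passed with the block at 3.82 (edgeR adjusted p = 0.0343), with DESeq2 at 4.22 (adjusted p = 4.49e-05), without the filter on low counts at 4.20 (edgeR adjusted p = 0.0293) and without positive replicate 1 at 4.68 (edgeR adjusted p = 0.015). Microglia, the class with the highest Il1a, made up 18.9% of positive brain cells (3.26% to 45.7%) and 0.453% of negative ones, and held 67.5% of the Il1a UMIs of positive brain. P2rx7, the ATP-gated channel that triggers NLRP3, was the only pathway gene called of 55 tested, at 3.13 (adjusted p = 0.029).

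Over all cells of bone and of liver edgeR called 0 members and 0% of all genes, with 0 members unadjusted in bone and 2 in liver, and 0 by DESeq2 in each. Il1b over all cells was 355 ± 229 CPM in positive and 316 ± 193 in negative bone, and 1931 ± 1025 and 1973 ± 1240.0 in liver (n = 4 each). The test of whether the biotin difference varied between tissues called 0 members over all cells (1.15% of all genes; 1 unadjusted, 0 by DESeq2) and 0 in neutrophils (0% of all genes; 0 unadjusted, 0 by DESeq2), and with the block it called Il18 over all cells (edgeR adjusted p = 0.0258). Without the block, 1 of 61 pathway genes tested over all cells passed, P2rx7 (edgeR adjusted p = 0.0348), near the background of 1.15%.

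Within the neutrophils of each intracardiac tissue, edgeR called 0 members between positive and negative sorts in bone, brain, liver and lung (0% of all genes in each), with 1 unadjusted in brain and 0 in the others, and 0 by DESeq2 in each. Brain was the tissue where the ligand came nearest: Il1b was 7993, 6501, 5189.9 and 6411 CPM in positive and 4658, 4566, 3159 and 3877 in negative neutrophils, without overlap, as for 2.71% of all genes. With the pool as a block the log2 fold change was 0.58 (edgeR adjusted p = 5.31e-06). Cluster 10 made up 25.1% of positive and 10.9% of negative brain neutrophils. Brain T cells held less Il1b in the positive sort, 61 ± 46.3 CPM, than in the negative one, 197 ± 44.8. In lung neutrophils the block called Il1a at 0.85 (edgeR adjusted p = 0.00128).

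Monocytes gave 0 members called by edgeR in each tissue (0% of all genes in each), with 2 unadjusted in bone, 1 in lung and 0 in brain and liver, and 0 by DESeq2. With the pool as a block Il1b was higher in positive monocytes of brain by 1.09 (edgeR adjusted p = 6.54e-08), of liver by 0.63 (0.0428) and of lung by 0.50 (0.0371), and Il1rap in lung by 1.22 (0.0381). Positive monocytes held more Il1b in 3 of 3 pools in brain and liver and in 4 of 4 in lung. T cells held Il1b at 1059 ± 223 CPM in 2 positive and 348 ± 327 in 4 negative liver samples, and at 1241 ± 889.8 in 3 positive and 480.4 ± 306.7 in 4 negative lung samples. In these 2 tissues the T cell mean was thus also higher in the positive sort, and the part of free RNA in the monocyte values was not tested. Positive liver monocytes were about level with T cells, as given above, so the liver call is not read as a difference in expression.

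In IIA bone, biotin positive neutrophils held more Il1b, Nlrp3, Il1r2 and Il1rap. Il1b in the neutrophils of injections 1 to 6 was 1181, 3688, 3513, 237, 1639.9 and 372 CPM in the positive and 343, 652, 509, 163, 328 and 120.1 in the negative sort. The positive sort was higher in 6 of 6 injections, with injections 2 and 3 highest and 4 and 6 within the range of the negative samples. The log2 fold change was 2.37 (SE 0.53, adjusted p = 0.0074) by edgeR over 6268 genes. Of the 10 members 8 were tested, 4 were higher and 0 lower, against 9.19% and 3.88% of all genes (13.1% in either direction), and the median over the tested members was 1.10 against 0.0034 over all genes.

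Nlrp3 in these neutrophils was 286, 728, 641, 102, 212 and 71.3 CPM in the positive and 90.3, 149, 113, 55.2, 75.7 and 42.3 in the negative sort, higher in 6 of 6 injections (1.99, SE 0.43, edgeR adjusted p = 0.0058). The decoy receptor Il1r2 was 618, 1049, 979, 305.3, 563 and 436 in the positive and 361, 429, 408, 290.4, 281 and 293 in the negative sort (0.95, SE 0.23, edgeR adjusted p = 0.01). Injections 2 and 3 again stood highest, and injection 4 differed least. Il1rap was 79, 285, 238, 33.9, 127 and 95 in the positive and 59.6, 83.1, 82.4, 43.2, 53.3 and 54.9 in the negative sort, lower in injection 4 and higher in the other 5 (1.25, SE 0.30, edgeR adjusted p = 0.01). Without positive replicate 3 its edgeR adjusted p was 0.0523.

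The antagonist Il1rn was 128, 693, 551, 76.3, 97.9 and 82.1 in positive and 113, 140.3, 143, 77.2, 89.3 and 93.8 in negative neutrophils, far higher in injections 2 and 3 and about level in the others. Its log2 fold change was 1.34 (SE 0.45, adjusted p = 0.056) by edgeR, and 0.93 with the injection as a block (edgeR adjusted p = 0.0224). It also passed without the filter on low counts (edgeR adjusted p = 7.57e-08), with the members among the clustering genes (0.0473), and without positive replicate 1, 4, 5 or 6 (0.024 to 0.0462). Casp1, Casp4 and Gsdmd did not pass, and Il1a and Il18 had too few counts to test.

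**Figure D5:**
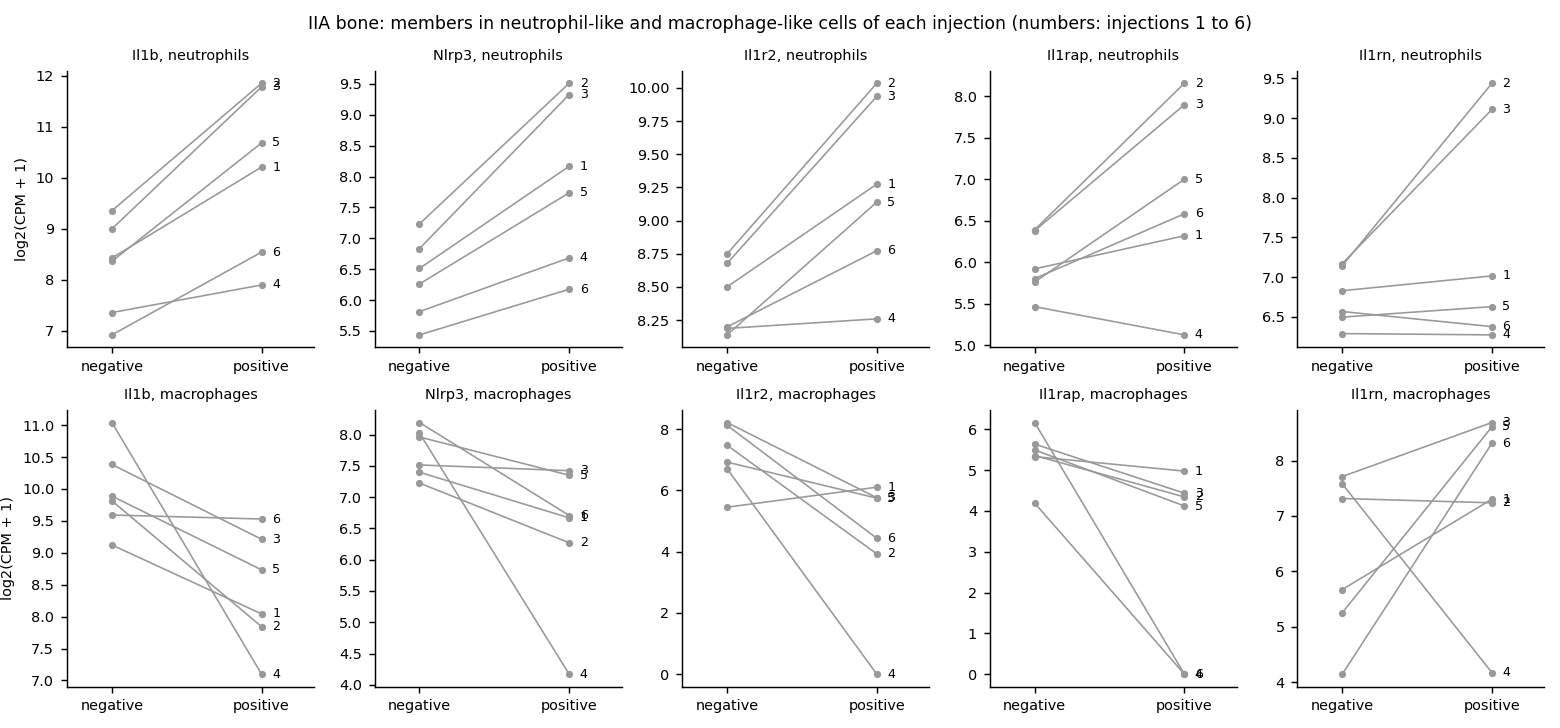
Level on the log2(CPM + 1) axis of Il1b, Nlrp3, Il1r2, Il1rap and Il1rn in neutrophil-like (top) and macrophage-like (bottom) cells of IIA bone, with a line for each of injections 1 to 6 from the negative to the positive sort. Il1b lines rise in 6 of 6 injections in neutrophils and fall in 6 of 6 in the macrophage class, whose sorts hold unlike cells.

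Different clusters held most of the 2 neutrophil sorts. Cluster 6, led by Acod1, Hcar2, G0s2 and Cxcl2 and also by the member Il1b, made up 53.5% of positive neutrophils (13.7% to 82.7%) and 10.6% of negative ones (1.33% to 13.4%). Cluster 5, led by Retnlg and Mmp8, made up 15.5% and 43.2%, and cluster 7 31% and 46.3%. Within cluster 6, examined after the values were seen, Il1b was 2637 ± 1616 CPM in 5 positive and 1104 ± 1047 in 5 negative samples, which did not pass when unpaired (exact permutation test, two-sided, p = 0.135, adjusted p = 0.355 over 50 tests). Nlrp3 there was 478 ± 334 and 153 ± 129.6 (exact permutation p = 0.0794, adjusted p = 0.248). Il1b, Nlrp3, Il1r2, Il1rap and Il1rn were each higher in the positive sort of cluster 6 in 5 of 5 injections. With the sorts of 1 injection as a pair, a test added later, each had an exact two-sided paired permutation p of 0.0625, the smallest that 5 pairs can give (adjusted p = 0.268 over 30 tests), so this design cannot reach the threshold. In cluster 5 Il1rap and Nlrp3 were higher in 0 of 5 injections, with the same p. Within cluster 7 Il1b was 617 ± 306.6 and 556 ± 199.6 in 6 and 6 samples. The summed neutrophil markers were 272188 CPM in positive and 332009 in negative neutrophils, and the median depth per cell was 1438 to 2585 UMIs in the positive and 1667 to 2606.5 in the negative samples. Their part in the result was not tested.

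Of the other pathway genes 41 of 64 were tested in these neutrophils, and 5 (12.2%) were higher and 3 (7.32%) lower, against 9.19% and 3.88% of all genes. Higher were Nfkbia at 2.02 (adjusted p = 0.002), the NF-kB subunit gene Nfkb1 at 0.90 (adjusted p = 0.0025) and Cflar, an inhibitor of caspase-8, at 0.60 (adjusted p = 0.0069). Lower were the IL-18 receptor chain gene Il18rap at -0.51 (adjusted p = 0.023), Nlrp12 at -0.70 (adjusted p = 0.025) and Gsdme, another gasdermin gene, at -0.68 (adjusted p = 0.046).

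In the IIA cells named macrophage by clustering, the 2 sorts held unlike cells. The 22 macrophage markers summed to 13804 CPM in the positive sort (6791 to 21976) and to 970 in the negative one (399 to 1730), whereas the 14 neutrophil markers summed to 12703 and 31805 and the 12 classical monocyte markers found to 3300 and 6894. The negative cells thus go against the name by these sums, and the values below compare the cells of this class in 2 sorts, not a change within 1 cell type. The same 4 members as in neutrophils were lower in the positive sort. Il1b was 263, 229, 592, 136, 425 and 738 CPM in positive and 557, 899, 1336, 2107, 947 and 771 in negative cells, lower in 6 of 6 injections although the groups overlapped (-1.41, SE 0.35, edgeR adjusted p = 0.0077). Il1r2 was 68, 14.2, 53.3, 0, 52.8 and 20.7 in positive and 42.8, 177, 297, 104, 121 and 279 in negative cells (-2.08, SE 0.45, edgeR adjusted p = 0.0029). Il1rap was 30.5, 19.3, 20.6, 0, 16.4 and 0 and 39.2, 40, 48.8, 17.3, 44.1 and 70.8 (-1.23, SE 0.31, edgeR adjusted p = 0.0075). Injection 4, with only 10 positive cells, had 0 counts of both receptors. T cells of this library held Il1r2 at 32.1 ± 24.6 CPM and Il1rap at 23.1 ± 12.9 CPM, so the positive values of both receptors, at or near those levels, are not read as expression. Nlrp3 was 101, 76.2, 171, 17, 162 and 103 and 168, 149, 182, 259, 248 and 292 (-0.85, SE 0.28, edgeR adjusted p = 0.034). The Nlrp3 call ended without negative replicate 4, 5 or 6 or positive replicate 1, 2 or 6 (edgeR adjusted p 0.0568 to 0.103). Without negative replicate 2 or 5, Il1rap had too few counts to be tested. The Nlrp3 call also ended with samples of at least 30 cells (0.0506). Of 8 members tested 4 were lower and 0 higher, against 13% and 12.4% of all genes (25.4% in either direction). The part of the unlike make-up was not tested, nor was the difference between this class and neutrophils.

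Il1rn and Il18 pointed upward in the same class without passing. Il1rn was 157, 149.8, 411, 17, 390.0 and 317 CPM in positive and 50, 158, 209, 190.0, 37.1 and 16.7 in negative samples, with a log2 fold change of 1.34 (SE 0.52, adjusted p = 0.066) by edgeR. It passed when likely doublets were left out (edgeR adjusted p = 0.0318), with samples of at least 30 cells (0.0278), with stricter hashtags (0.0252), without the filter on low counts (0.0128), with the members among the clustering genes (0.0278), and without negative replicate 2 (0.041), negative replicate 3 (0.0394) or positive replicate 4 (0.0265). Il18 was 25.8, 32.5, 36.1, 102, 32.8 and 75.9 and 17.8, 34.3, 8.87, 0, 18.6 and 0, with 1.04 (SE 0.43, adjusted p = 0.083) by edgeR and 1.40 by DESeq2 (adjusted p = 0.0317). Casp4 was lower with the injection as a block, at -0.67 (edgeR adjusted p = 0.0463).

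The 2 sorts of this class also differed in their clusters. As means over samples, the class was 19.2% of positive and 2.15% of negative IIA cells, the latter being the cells that go against the name. Cluster 0, led by genes that include Pf4 and Hmox1, made up 76.9% of the positive and 100% of the negative ones, and cluster 21, led by Vcam1 and Cd5l, 23.1% and 0%. These are also means of sample percents. Counted by cells cluster 21 was a smaller part, with 80 cells in all beside 797 positive cells of the class. Il18 in cluster 21 was 217 ± 69.2 CPM (4 positive samples) against 22.2 ± 5.91 in cluster 0 of 5 positive samples. Within cluster 0 alone, examined after the values were seen, Il1b was 522 ± 317 in 5 positive and 1103 ± 554 in 6 negative samples (exact permutation p = 0.0476), Il1r2 45.3 ± 23 and 170.1 ± 101 (exact permutation p = 0.0173), and Il1rn 323 ± 153 and 110.1 ± 84.9 (exact permutation p = 0.039). None of these passed after adjustment over 50 tests (adjusted p 0.168 to 0.17).

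Of the other pathway genes 33 of 64 were tested in the IIA macrophage class, and 4 (12.1%) were higher, as were 12.4% of all genes, and 7 (21.2%) lower, against 13% of all genes. Lower were Mefv at -1.83 (adjusted p = 0.00019), the kinase gene Irak2 at -1.14 (adjusted p = 0.00046) and Nfkb1 at -0.87 (adjusted p = 0.0074). Higher were Ninj1, which encodes the protein that ruptures the membrane of dying cells, at 1.20 (adjusted p = 0.00062), P2rx7 at 1.90 (adjusted p = 0.0033) and the neutrophil elastase gene Elane at 1.20 (adjusted p = 0.01).

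In IIA monocytes edgeR called 0 members (0.0335% of all genes), with 1 unadjusted and 0 by DESeq2, in 3 positive and 6 negative samples. Il1b stood at -1.80 (SE 0.75, adjusted p = 0.51) by edgeR and did not overlap between the sorts, nor did Casp4, 2 members against 9.48% of all genes. Both monocyte sorts held Il1b near the level of T cells.

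Over all IIA cells 2 members passed, in opposite directions. Il1r2 was 74.5, 86.8, 123, 34.9, 36.7 and 51.7 CPM in positive and 89.9, 137, 136, 77.8, 108 and 84.8 in negative samples (-0.87, SE 0.30, edgeR adjusted p = 0.029), and Il1rap 50.3, 43.8, 47.2, 38.6, 47.7 and 55.2 and 29.5, 38.5, 36.5, 26.3, 29.1 and 26.3 (0.37, SE 0.12, edgeR adjusted p = 0.026). Il1rap did not overlap between the sorts, as for 30.6% of all genes, whereas Il1r2 did. The 2 called members of 9 tested stood against 50.2% of all genes called (27% higher and 23.2% lower), so the share of members was below the background. Il1r2 lost its call without negative replicate 2, 3 or 5 or positive replicate 5 or 6 (edgeR adjusted p 0.0527 to 0.0726), and Il1rap without negative replicate 1, 4, 5 or 6 or positive replicate 6 (0.0501 to 0.0596) and without the filter on low counts (0.0632). Casp1 at -0.29 (SE 0.12, adjusted p = 0.055) passed by DESeq2 (adjusted p = 0.0322), without likely doublets (edgeR adjusted p = 0.0487), and without negative replicate 1 or positive replicate 2 or 6 (0.0124 to 0.0495). Neutrophils were 24.5% of positive and 25.9% of negative cells, immature neutrophils 7.38% and 19.1%, and granulocyte precursors 22.2% and 1.58%. Unnamed cells were 13.2% and 20.3%, and held 5.04% and 21.6% of the Il1r2 UMIs. They include cluster 4 (3504 cells), which tied between the neutrophil and immature neutrophil marker lists. Granulocyte precursors held Il1rap at 37.6 ± 15.1 and Il1r2 at 20.9 ± 11 CPM, and the part of these shares in both calls was not tested.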

How the data were processed

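The authors deposited unnormalized UMI counts per gene and cell, made with Cell Ranger 6.1.2 (intracardiac) and 7.1.0 (IIA) per the file headers. The submitters' processing notes also name Seurat and mm10. Use of strand and of intronic reads is not given in the sources used here. IIA cells were assigned to samples by hashtags, with at least 10 counts and 3 times the second tag (22685 of 26666 cells). The hashtag rows and the key in the files differ in spelling (CMO and C0) and were matched by number.

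Cells under 500 UMIs or 200 genes, or above 15% mitochondrial counts, were dropped (55366 of 57065 intracardiac cells remained). The rest were clustered with scanpy 1.11.5 (2000 variable genes without the members, 30 components, 15 neighbours, resolution 1.0). Clusters were named from 27 marker lists, and 8.3% of intracardiac and 19% of IIA cells stayed unnamed. Likely doublets were kept, and the 5% highest Scrublet scores were left out as an alternative. Counts were summed per sample and class with at least 10 cells and tested with edgeR 4.0.16 (quasi-likelihood, TMM, default filter on low counts, R 4.3.3) at a false discovery rate of 0.05 over all genes tested. Tissues were compared in biotin negative samples. DESeq2 1.42.0, other filters, each sample left out and a replicate block were alternatives. Tests within clusters were exact two-sided permutation tests, and the test paired by injection was added after seeing the data.

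On simulated counts for lung neutrophils (6427 genes), 38.4% of genes changed 2-fold and 85.1% of those changed 4-fold were recovered, and for lung all cells (12331 genes) 11.2% and 71%. Per the file headers, the 8 intracardiac samples of 1 replicate number carry 1 set of tags and share 0 barcodes, so a number is read as 1 pool, while 341 barcodes recur between numbers. Same-numbered samples deviated together (correlation over 0.1), except lung all cells of number 3 (-0.0916) and bone monocytes of number 3 (0.0767). IIA numbers mark the injection per the labels, with correlations of 0.0778 to 0.562 over all cells. For injections 1, 3 and 5 over all cells, the own number was not the best match. The correlations were 0.109 to 0.316 in IIA neutrophils, -0.0985 to 0.299 in the IIA macrophage class and -0.000922 to 0.149 in IIA monocytes.

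The members, marker lists and 66 pathway genes (64 found in the files) were chosen with earlier results of these data known. All members are named. Of the pathway genes at most the 3 with the smallest adjusted p in each direction are named per comparison, and of genes that run like a member the 3 with the highest r. A few genes that these rules pick are not reported here.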

Additional observations from a re-analysis of the deposited data

Results flagged for a closer look

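In 18 of 269 groups of 4 or 6 samples, 1 sample stood apart from the rest by Dixon's criterion, and chance alone gives about 1 in 20. Over all cells, Casp1 was 16.6 CPM in liver positive replicate 4 (29.2 to 31.5 in the others), Casp4 was 20.6 in bone negative replicate 1 (29.3 to 30.9), and Il1r2 was 1101 in liver negative replicate 2 (214 to 350.0). Il18 over all cells was 9.09 in IIA negative replicate 2 (3.19 to 4.61) and 5.95 in liver negative replicate 4 (17.2 to 18.9).

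In neutrophils, Il1b was 21008 CPM in lung positive replicate 1 (7571 to 8753 in the others), Il1a was 26.4 in bone positive replicate 1 (2.19 to 6.29), and Nlrp3 was 242 in bone positive replicate 1 (93.5 to 109.7). Nlrp3 was 390.0 in liver negative replicate 2 (173 to 209), Il1rn was 203 in liver positive replicate 4 (97.9 to 104), and Gsdmd was 24.5 in bone negative replicate 2 (41.4 to 44.4). At low levels, Il18 was 7.72 in bone negative replicate 1 (3.56 to 4.09), 4.29 in lung positive replicate 2 (6.01 to 6.35) and 8.11 in IIA negative replicate 2 (0.708 to 2.50), where Il1a was 1.01 and 0 in the other 5 samples.

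In monocytes, Il1r2 was 804 CPM in bone positive replicate 2 (209 to 252 in the others) and 784 in liver negative replicate 2 (145 to 229), and Casp4 was 57.5 in lung negative replicate 1 (38.9 to 39.9). The liver negative sample of pool 2 thus stood highest for Il1r2 over all cells and in monocytes, and for Nlrp3 in neutrophils.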

How the results depend on the processing

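No member reversed under any setting run. Over the member results, 1422 kept their side of the threshold under other settings, 3 lost and 35 gained it, and with 1 sample left out 1932 kept, 19 lost and 12 gained it. The replicate block raised the number of called members from 0 to 1 in brain all cells, brain neutrophils, lung neutrophils, brain monocytes, liver monocytes, monocytes of bone against other tissues and the difference between tissues over all cells, from 0 to 2 in lung monocytes and in neutrophils and monocytes of lung against liver, and from 1 to 2 in lung all cells. It changed no other count of members by more than 1.5 times. Without the filter on low counts, the number went from 0 to 1 in brain all cells and brain monocytes and to 2 in neutrophils of lung against liver. DESeq2 called 1 member in brain all cells and 1 in monocytes of lung against liver. The cause was not tested. With 1 sample left out, called members ranged from 0 to 3 in IIA all cells, 2 to 5 in the IIA macrophage class (2 without negative replicate 5, where Nlrp3 lost its call and Il1rap had too few counts to be tested), 3 to 5 in IIA neutrophils, 0 to 1 in brain all cells and 2 to 5 in neutrophils of bone against other tissues (2 without bone replicate 4).

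Over all genes, brain all cells gave 339 calls, and 1225 with DESeq2, 517 without the filter and 762 with the block; bone all cells gave 0, and 53 with DESeq2 and 12 with the block; liver all cells gave 0, and 431 with DESeq2. Neutrophils of bone against other tissues gave 568, and 1533 with the block. The difference between tissues gave 161, and 547 with DESeq2 and 690 with the block. With the block, calls went from 0 to 67 in brain neutrophils, 79 in lung neutrophils, 39, 42 and 274 in brain, liver and lung monocytes, and from 3 to 40 in IIA monocytes. Of 110 class levels, 4 moved by over 1 SD as means over cells, all IIA: Gsdmd in monocytes 61.8 and neutrophils 45.8, Il18 in monocytes 21.1 and Il1b in monocytes 39.0 CPM. Depth limits any class with few cells in a sample, the minimum being 10.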
